A study of Pan troglodytes with 8 samples.

Results

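The regions described here are stretches of open chromatin that were called as peaks in all 3 sorted progenitor populations of chimpanzee cerebral organoids and were not called in sorted neurons. A region of the deposited count table was a member when its chimpanzee (panTro6) interval shared at least 1 bp with an interval of each of the 3 progenitor peak lists and with none of the neuron list. The rule found 13763 members among 211348 regions (6.51%). The members were thus chosen by peak calls. These calls come from the same libraries as the counts, so the lower level of the members in neurons is how they were chosen and is given below as a description, with no test.

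All cells came from 1 chimpanzee induced pluripotent stem cell line, SandraA, grown into whole cerebral organoids and collected at week 8 ± 3 days, so every group has the same genotype and age. Cells were sorted into 4 populations with 2 libraries each, made by the assay for transposase-accessible chromatin (ATAC-seq): neurons labelled BCL11B+ (N), basal intermediate progenitors (bIP), basal radial glia (bRG) and apical radial glia (aRG). The labels do not say that libraries 1 and 2 came from separate cultures, so p-values measure the spread between these libraries, which may be technical. One line and organoid culture stand for the species here, and no other line or tissue enters.

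Apical radial glia divide at the ventricle and are the founding progenitors of the cortex. They give rise to basal radial glia, which leave the ventricular surface but keep a radial fibre and the transcription factors SOX2 and PAX6, and to basal intermediate progenitors, which express EOMES (TBR2) and divide to make neurons. Enhancers of progenitor genes are often open in these cells and close as neurons form, and the transposase of ATAC-seq cuts open DNA more often than packed DNA.

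The libraries held between 24913928 and 34845193 counts over the table. Levels are given as CPM, a region's count scaled by its library's total and by the edgeR TMM factor used in the fit, with library 1 before library 2. The labels were checked at marker genes by summing the regions within 50 kb that had the marker as their closest gene in the deposited table. SOX2, a radial glia factor, summed to 21.8 and 18.7 CPM in N, 48.0 and 57.2 CPM in bIP, 107 and 99.7 CPM in bRG and 123 and 105 CPM in aRG. EOMES, which marks intermediate progenitors, was highest in bIP, at 47.5 and 32.9 CPM in N, 79.1 and 81.0 CPM in bIP, 43.4 and 50.8 CPM in bRG and 57.6 and 55.6 CPM in aRG. TBR1, a gene of young deep-layer neurons, summed to 51.3 and 47.9 CPM in N, 75.3 and 68.6 CPM in bIP, 28.4 and 27.5 CPM in bRG and 36.5 and 30.9 CPM in aRG, so N was above the radial glia and below bIP. BCL11B, the gene named in the label of the neurons, was lower in N than in any progenitor population, with 51.3 and 45.1 CPM in N, 70.8 and 69.3 CPM in bIP, 63.9 and 54.9 CPM in bRG and 68.9 and 60.7 CPM in aRG. No region used here had DCX, a gene of young neurons, as its closest gene within 50 kb. In bulk libraries, fewer open cells of a type and less open chromatin per cell cannot be told apart.

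The members took up 3.42 and 2.55% of all counts in the N libraries, 8.02 and 9.0% in bIP, 14.6 and 14.0% in bRG and 14.9 and 13.9% in aRG. As means over the 2 libraries of a population, the shares were 2.98 ± 0.615% in N, 8.51 ± 0.694% in bIP, 14.3 ± 0.484% in bRG and 14.4 ± 0.701% in aRG (SD, n = 2 each). The level of bIP was therefore not that of the radial glia, although all members had a peak in all 3 progenitor lists, and it did not overlap either them or N. The median member stood at 1.73 and 1.45 CPM in N, 4.10 and 4.71 CPM in bIP, 7.45 and 6.55 CPM in bRG and 7.78 and 6.87 CPM in aRG. Regions with a peak in all 4 lists, of which there were 37430, differed little across the populations, with medians of 10.4 and 9.21 CPM in N, 11.3 and 11.1 CPM in bIP, 10.8 and 10.0 CPM in bRG and 11.2 and 10.6 CPM in aRG. The 19782 regions with peaks in aRG and bRG only had medians of 0.588 and 0.588 CPM in N, 1.16 and 1.49 CPM in bIP, 3.76 and 3.495 CPM in bRG and 3.83 and 3.64 CPM in aRG.

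**Figure D1:**
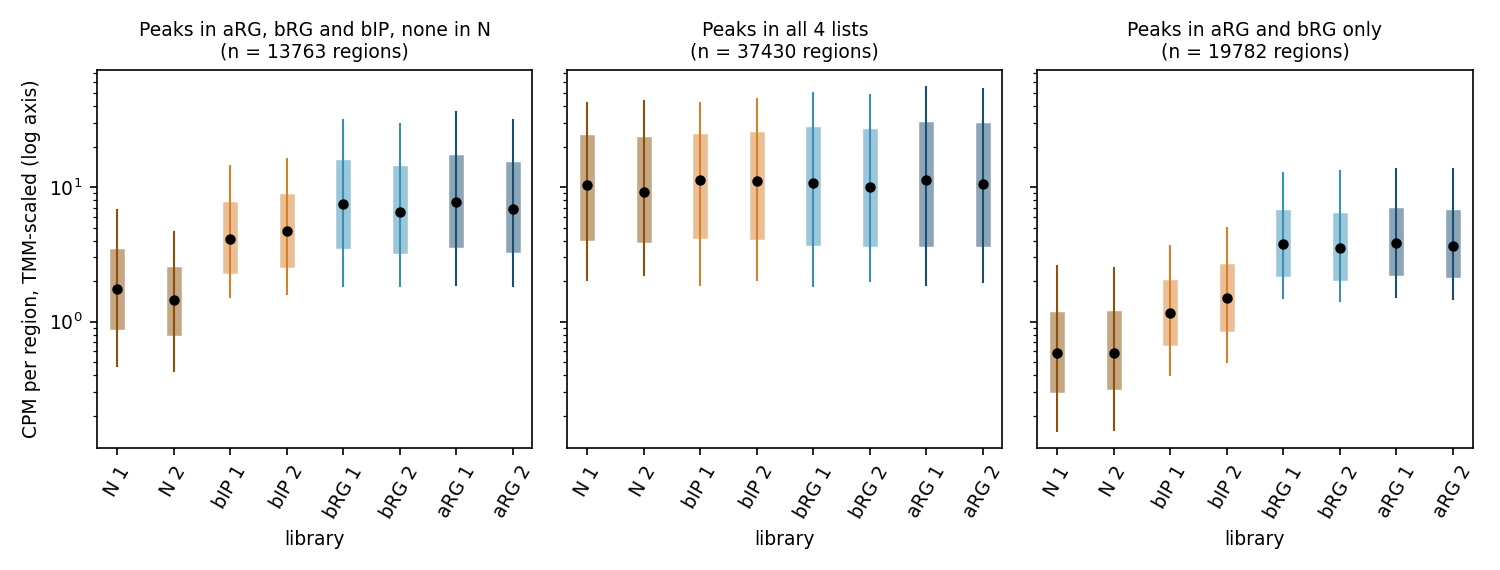
CPM per region (log axis) in each of the 8 libraries, for the 13763 members, the 37430 regions with peaks in all 4 lists and the 19782 regions with peaks in aRG and bRG only. The dot is the median, the thick bar the range between the quartiles and the line the 5th to 95th percentile. The members are lowest in N, with medians of 1.73 and 1.45 CPM, and next lowest in bIP, while the regions with all 4 peaks stay near 10 CPM in every population.

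Members were low in neurons but not empty there. No member had 0 counts in any library, and 10297 (74.8%) and 9569 (69.5%) of the 13763 had at least 1 CPM in N libraries 1 and 2. Per kilobase of region the median member had 1.602 and 1.32 CPM in N, against 0.785 and 0.963 CPM in N for the 75303 regions with no peak in any list. A region without an N peak was therefore not a region without fragments in N. The log2 ratio of N over the mean of the progenitors had a median of -1.87, with 90% of members between -4.10 and -0.15. Under -1 were 10468 members, under -2 were 6334, under -3 were 2904 and under -4 were 812, while 464 were above 0. The nearest N interval lay a median of 8421 bp away, and 1207 members had one within 1000 bp and 7596 within 10000 bp. In 11364 members (82.6%) both N libraries lay below all 6 progenitor libraries, where 25.1% of all regions did. Because missing N peaks chose the members, nothing is read from this count.

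The members next to the edge of the rule show how it sorts regions. The 3 members with the weakest progenitor peak lay near SCN4B, a sodium channel subunit gene, near AC091096.1 and near KCNK10, a potassium channel gene. The KCNK10 region (chr14:69052600-69054642) had 4.55 and 3.17 CPM in N, 6.05 and 5.90 in bIP, 4.17 and 5.29 in bRG and 4.61 and 3.73 in aRG, so N overlapped the radial glia there. The SCN4B region (chr11:113918868-113919135) had 1.27 and 0.940 CPM in N, 3.81 and 4.14 in bIP, 4.67 and 4.48 in bRG and 3.87 and 3.73 in aRG, with N below every progenitor library. Just outside were the 3 regions with peaks in all 4 lists and the weakest N peak. One of them, near AC119674.1 (chr1:55202616-55203638), had 3.41 and 2.98 CPM in N, 19.6 and 21.6 in bIP, 11.2 and 12.05 in bRG and 13.4 and 10.7 in aRG, with N below every progenitor library although an N peak was called. Another, near RNU6-709P (chr10:110004973-110006338), had 2.14 and 2.70 CPM in N, 2.68 and 2.87 in bIP, 3.40 and 3.63 in bRG and 3.28 and 3.35 in aRG and was nearly flat.

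Within the progenitors the members were compared by a test, since the rule asked for a peak in each and not for a difference between them. The rule did leave out regions with an N peak, however, and bIP often lay between N and the radial glia. Leaving out N peaks may thus also favour regions low in bIP, which was not tested. The shares lower in bIP below are therefore read as a description of the members. All 13763 members passed the filter on low counts. In bIP against aRG, 6638 members (48.2%) were lower and 869 (6.31%) were higher at an adjusted p under 0.05, and 6256 were not called (edgeR's quasi-likelihood test, Benjamini-Hochberg adjustment over the 198227 regions that passed the filter). Over all tested regions, 22.6% were lower and 24.5% higher in bIP than in aRG. The median log2 fold change of the members was -0.71, with quartiles of -1.45 and -0.08, beside 0.05 over all regions. Among regions with peaks in all 4 lists, 25.6% were lower and 13.3% higher, with a median of -0.18. Without aRG library 1 the members called higher numbered 549, and without aRG library 2 they numbered 417.

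In bIP against bRG, 6266 members (45.5%) were lower and 919 (6.68%) were higher, and 6578 were not called, with a median log2 fold change of -0.65. Over all tested regions 20.4% were lower and 22.4% higher in this comparison, and among regions with peaks in all 4 lists 15.8% were lower and 13.7% higher, with a median of -0.08. Without bRG library 1 the members called higher numbered 567, and without bRG library 2 they numbered 521. The comparisons against aRG and bRG share the bIP libraries, so their values stand side by side and are not independent. In bRG against aRG no member was called by edgeR (0.0% of all regions were) or by DESeq2, and 59 members had an unadjusted p under 0.05 in edgeR, with a median log2 fold change of -0.08. That median was 0.046 when the libraries were scaled on regions at gene starts. Both bIP libraries lay below all 4 radial glia libraries in 8475 members (61.6%), where 30.3% of all regions did, and above them in 1762 (12.8%), where 31.6% did. Both bIP libraries lay between N and the radial glia in 7785 members (56.6%), where 17.5% of all regions did. That last order uses the N level and so is in part set by the rule. It was not particular to the members, since 71.3% of the 19782 regions with peaks in aRG and bRG only had it. Of those regions 91.8% had both bIP libraries below all 4 radial glia libraries and 0.404% above. By edgeR 82.0% of them were lower in bIP than in aRG and 0.0859% higher. They were chosen for lacking a bIP peak, so their low bIP level is in part set by that choice.

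**Figure D2:**
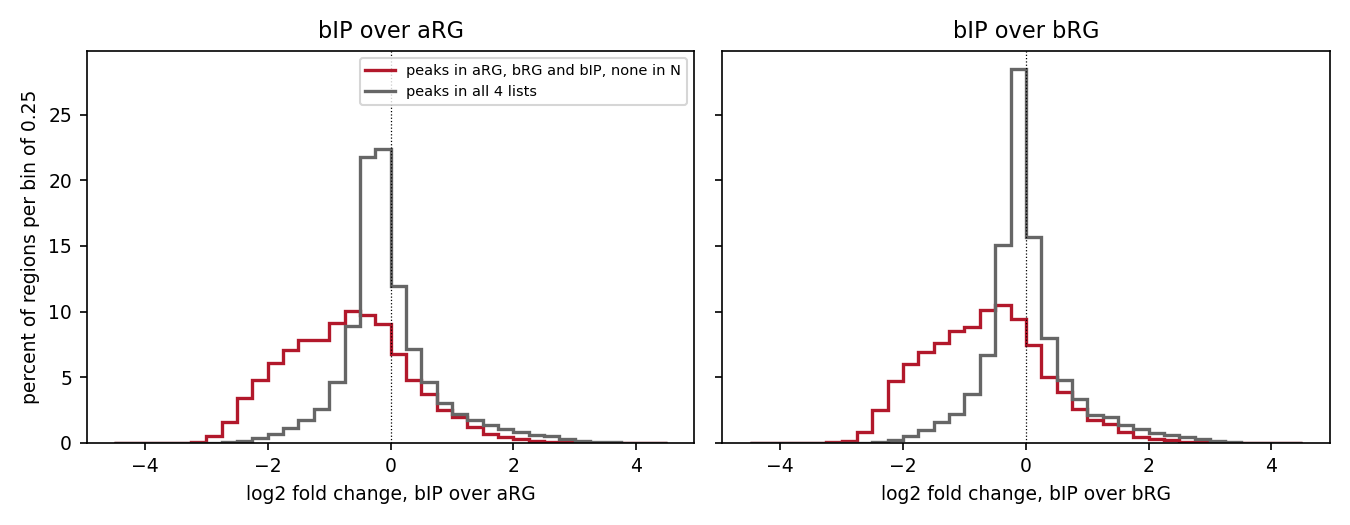
Distribution of the log2 fold change of bIP over aRG (left) and of bIP over bRG (right), as the percent of regions in bins of 0.25, for the 13763 members (red) and the 37430 regions with peaks in all 4 lists (grey). The members lie left of zero with medians of -0.71 and -0.65 and a long lower side, while the regions with all 4 peaks centre near zero with medians of -0.18 and -0.08.

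By these calls the members fell into classes. There were 6046 members (43.9%) lower in bIP than in both kinds of radial glia, 5879 (42.7%) called against neither, 762 (5.54%) higher in bIP than in both, and 1076 (7.82%) called against 1 of them. Members lower in bIP were the strongest in radial glia, with medians of 1.36 and 1.25 CPM in N, 3.81 and 5.05 CPM in bIP, 13.9 and 12.5 CPM in bRG and 14.9 and 13.4 CPM in aRG. Members called against neither had medians of 2.01 and 1.53 CPM in N, 4.06 and 4.02 CPM in bIP, 4.52 and 4.07 CPM in bRG and 4.61 and 4.19 CPM in aRG. Weaker regions have fewer counts to call a difference with, so this class can hold both level regions and regions with too few counts. Members higher in bIP had medians of 2.85 and 1.88 CPM in N, 8.99 and 9.28 CPM in bIP, 3.29 and 3.36 CPM in bRG and 3.63 and 3.31 CPM in aRG. In these N library 1 was close to the radial glia. The classes were cut on the values shown, so these levels describe them and test nothing.

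The libraries of a population also differed in these classes. In bIP, library 2 was above library 1 in 4870 (80.5%) of the members lower in bIP, in 48.6% of those called against neither and in 54.5% of those higher in bIP. Among the regions with peaks in aRG and bRG only, library 2 of bIP was the higher in 14825 of 19782 (74.9%). In N, library 2 was above library 1 in 4142 members (30.1%), and in 107 of the 762 members higher in bIP (14.0%), beside 48.6% of the regions with peaks in all 4 lists. Of the groups counted, library 2 of bIP was thus most often the higher in members lower in bIP. Library 2 of N was least often the higher in members higher in bIP. These counts give how often a library was higher and not by how much. What part this has in the levels of bIP and N was not tested.

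**Figure D3:**
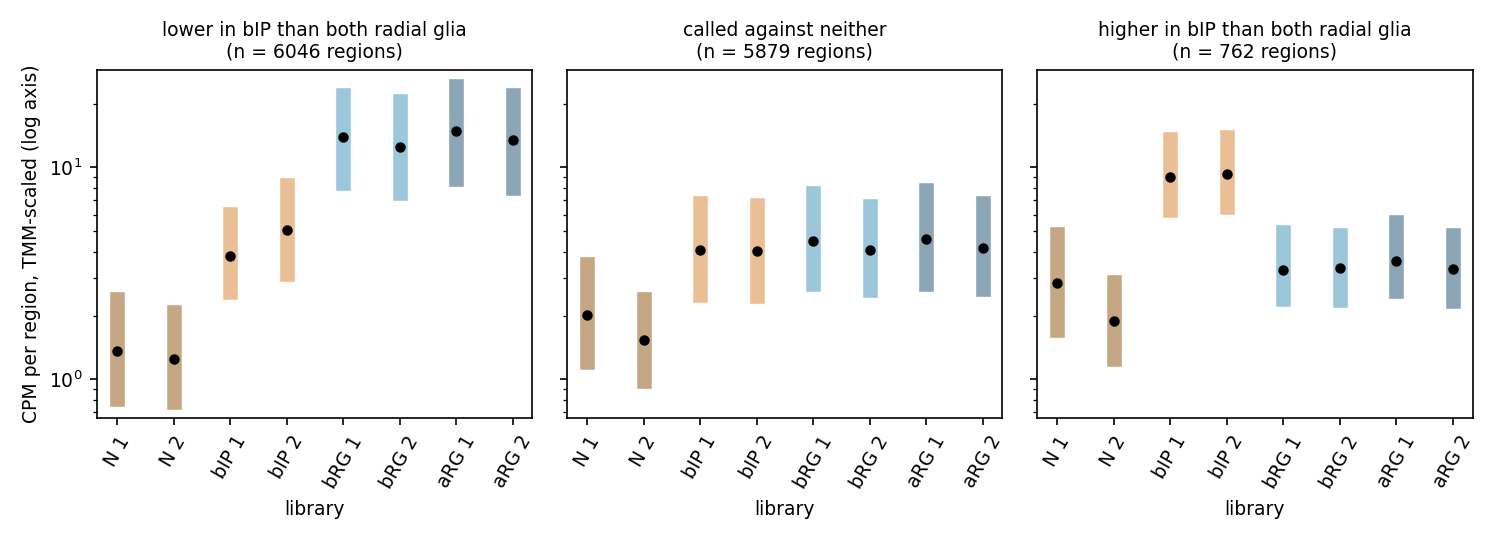
Median CPM (log axis) with quartiles in each library for members lower in bIP than both radial glia populations (6046), higher in bIP than both (762) and called against neither (5879). The lower class stands at 3.81 and 5.05 CPM in bIP and at 14.9 and 13.4 CPM in aRG, and the higher class at 8.99 and 9.28 CPM in bIP, while N is lowest in every class.

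Individual members are named by the closest gene in the deposited table and by their distance to that gene's start, and no measurement here ties a region to the activity of a gene. The distances are those of the table, and the build behind them is not stated. In counts of regions near or within 50 kb of a gene, that gene was the region's closest gene and lay within 50 kb. Regions closer to another gene, such as a non-coding one, are left out of these counts. Only 3696 members (26.9%) had a protein-coding closest gene at any distance. Of 26 progenitor genes looked up, 17 had a member within 50 kb, and the member with the most counts was taken for each. No member lay near SOX9 (of 9 regions), SLC1A3 (of 5), HOPX (of 4), NES, FABP7 and LHX2 (of 3 each) or VIM (of 1). NOTCH2 and YAP1 had no region. So few regions per gene can show no member, and nothing is read from these genes. In bIP against aRG 13 of the 17 were lower, where 48.2% of all members were, none was higher, and those near HES5, EMX2, GLI2 and EOMES were not called. Ranking by counts favours regions strong in radial glia, which give 4 of the 6 progenitor libraries, so this count describes the regions named. With the replicate number as a block, 16 of the 17 were lower, where 54.4% of all members were, and only that near EOMES was not called. As background for the gene lists, near all protein-coding genes 3003 of 47822 regions (6.28%) were members, of which 1258 (41.9%) were lower and 173 (5.76%) higher in bIP than in aRG. Calls given with a fold below held in all 14 alternative settings unless a loss is given. The fold against bRG is left out for some regions, and a call against aRG alone is not a call against both. Of 134 regions near the 23 shared radial glia genes listed, 17 (12.7%) were members, 14 of them lower in bIP than in aRG and none higher, with a median log2 fold change of -0.95.

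Transcription factors that keep progenitors undifferentiated come first. SOX2 holds neural progenitors in the stem state, and a member lay 3156 bp from its start (chr3:179795561-179796420). It had 1.21 and 1.06 CPM in N, 7.47 and 10.3 in bIP, 32.1 and 27.9 in bRG and 38.0 and 28.0 in aRG. N, bIP and the radial glia did not overlap, and its log2 fold change in bIP was -1.89 ± 0.20 against aRG (adjusted p = 2.27e-05), by edgeR, as for all folds of single regions below (± SE). Against bRG the fold was -1.76 ± 0.20 (adjusted p = 3.98e-05). PAX6, the regulator of cortical radial glia, had 2 members. The stronger (chr11:31521418-31523087, 5784 bp away) had 3.34 and 3.13 CPM in N, 10.8 and 13.7 in bIP, 28.5 and 24.5 in bRG and 30.2 and 23.4 in aRG. The groups were again apart, with bIP at -1.13 ± 0.18 against aRG (adjusted p = 0.000354). The fold over bRG was -1.11 ± 0.18 (adjusted p = 0.000426). The weaker PAX6 member lay over the gene's start (chr11:31515463-31516023), with 4.18 and 2.90 CPM in N, 5.87 and 6.09 in bIP, 10.1 and 8.92 in bRG and 10.3 and 8.92 in aRG. Against bRG it was not called (edgeR adjusted p = 0.0528), while 5 of the 14 alternatives called it lower, the replicate block at adjusted p = 0.0181. Both bIP libraries were below the radial glia there, but its fold of -0.69 ± 0.26 against aRG (edgeR adjusted p = 0.0444) was lost with library totals only (adjusted p = 0.120), with TMM factors from regions at a gene start (adjusted p = 0.207), without aRG library 1 (adjusted p = 0.218), without aRG library 2 (adjusted p = 0.0920), without bRG library 1 (adjusted p = 0.0728), without bRG library 2 (adjusted p = 0.0708), without bIP library 1 (adjusted p = 0.135) and without bIP library 2 (adjusted p = 0.0874), and adjusted p ran between 0.0153 and 0.218 over the 14 alternatives.

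SOX1, a close relative of SOX2, had a member 4594 bp from its start (chr13:93350658-93353006) with 11.8 and 9.01 CPM in N, 24.2 and 28.8 in bIP, 47.5 and 42.3 in bRG and 52.2 and 47.0 in aRG. It was one of the stronger members in N, and bIP stood between N and the radial glia at -0.90 ± 0.14 against aRG (adjusted p = 0.000296). Relative to bRG it was -0.76 ± 0.14 (adjusted p = 0.000998). NFIA, a factor of later progenitors and of the step to glia, had 2 members, both lower in bIP than in aRG. The farther one (chr1:59935277-59936122) had 1.02 and 0.980 CPM in N, 3.95 and 7.66 in bIP, 26.3 and 23.2 in bRG and 31.5 and 24.4 in aRG, with no overlap of N, bIP and radial glia and a fold in bIP of -2.27 ± 0.26 against aRG (adjusted p = 4.08e-05). Its fold against bRG was -2.09 ± 0.26 (adjusted p = 7.50e-05). EMX2, a patterning factor of the cortex, had its strongest member 4857 bp away (chr10:113434651-113436098) with 12.2 and 7.21 CPM in N, 20.0 and 15.2 in bIP, 24.4 and 18.3 in bRG and 27.9 and 22.6 in aRG. There bIP library 1 lay within the radial glia range, and the fold of -0.52 ± 0.24 against aRG was not called (edgeR adjusted p = 0.0906), while with the replicate number as a block it was (adjusted p = 0.00463). For the SOX and nuclear factor I genes, 10 of 94 regions (10.6%) were members, 5 lower in bIP than in aRG and none higher, beside 41.9% lower among members near all protein-coding genes. ZFP36L1, which encodes an RNA-binding protein that speeds the decay of messages, had 3 members within 50 kb. The one 812 bp from its start (chr14:49605473-49606529) had 4.09 and 4.15 CPM in N, 11.4 and 15.5 in bIP, 40.1 and 37.5 in bRG and 45.9 and 42.9 in aRG, and bIP was clear of both neighbours at -1.72 ± 0.15 against aRG (adjusted p = 8.37e-06). For bRG the fold was -1.53 ± 0.15 (adjusted p = 1.81e-05).

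**Figure D4:**
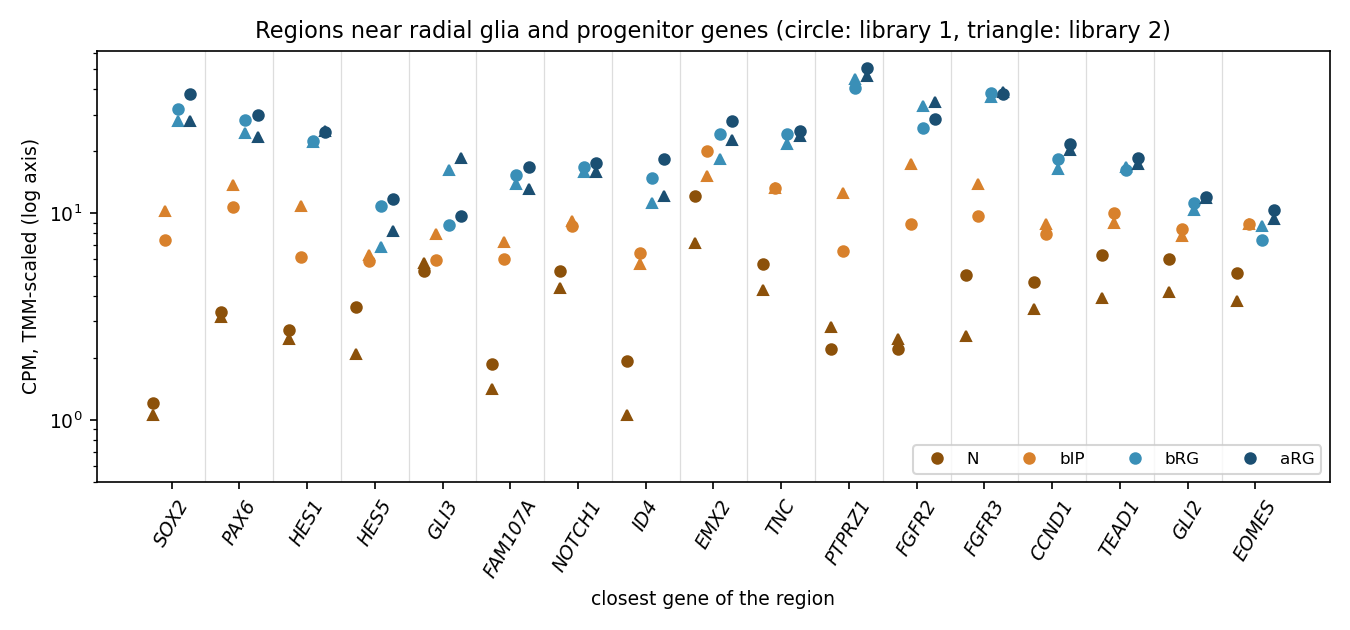
CPM (log axis) in the 8 libraries for the strongest member with each of 17 progenitor genes as its closest gene within 50 kb. Circles are library 1 and triangles library 2. N is below the radial glia in all 17 regions, and bIP lies below them in SOX2, HES1, PTPRZ1 and FGFR3 but among them in EOMES.

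Notch signalling, in which the receptor NOTCH1 switches on HES genes that repress neuronal genes, had members near some of its genes. None of the 12 regions near RBPJ, which carries the signal to DNA, was a member, where 6.28% of regions near all protein-coding genes were. So few regions can show none at that share, and nothing is read from it. The NOTCH1 member (chr9:108777201-108777931, 1062 bp from the start) had 5.26 and 4.35 CPM in N, 8.74 and 9.19 in bIP, 16.8 and 15.8 in bRG and 17.5 and 15.8 in aRG. It fell in bIP by edgeR, at -0.90 ± 0.19 against aRG (adjusted p = 0.00228), with each population's libraries close together. Over bRG it stood at -0.86 ± 0.19 (adjusted p = 0.00305). The target gene HES1 had a member over its start (chr3:192197419-192197859), at 2.73 and 2.47 CPM in N, 6.16 and 10.8 in bIP, 22.4 and 22.2 in bRG and 24.9 and 25.2 in aRG. This start region was lower in bIP, at -1.56 ± 0.23 against aRG (adjusted p = 0.000182). Compared with bRG it was -1.39 ± 0.23 (adjusted p = 0.000415). HES5, another target, had a member 5010 bp away with 3.53 and 2.08 CPM in N, 5.91 and 6.32 in bIP, 10.9 and 6.89 in bRG and 11.8 and 8.21 in aRG. Its bRG and aRG libraries spread by more than the distance to bIP, and its fold of -0.71 ± 0.32 against aRG was not called (edgeR adjusted p = 0.0875), while with the replicate number as a block it was (adjusted p = 0.0267). ID4, an inhibitor of neurogenic basic helix-loop-helix factors, had 1.92 and 1.06 CPM in N, 6.45 and 5.70 in bIP, 14.8 and 11.2 in bRG and 18.3 and 12.2 in aRG in its stronger member (chr6:22777595-22778442). The order was that of HES1, but the fold of -1.33 ± 0.30 against aRG (edgeR adjusted p = 0.00286) was lost without aRG library 1 (adjusted p = 0.0501), and adjusted p ran between 9.29e-05 and 0.0501 over the 14 alternatives. Of 76 regions within 50 kb of the 21 Notch, HES and ID genes listed, 10 (13.2%) were members, and 7 of the 10 were lower in bIP than in aRG and none higher, beside 41.9% lower among members near all protein-coding genes.

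Receptors for fibroblast growth factors, which drive progenitor division, carried strong members. The FGFR3 member (chr4:2161804-2163240) had 5.02 and 2.55 CPM in N, 9.71 and 13.9 in bIP, 38.2 and 36.5 in bRG and 37.8 and 38.6 in aRG. Its bRG and aRG libraries were nearly equal and stood well above bIP, at -1.70 ± 0.24 against aRG (adjusted p = 0.000125). Set against bRG it was -1.66 ± 0.24 (adjusted p = 0.000159). FGFR2 had 2.199 and 2.47 CPM in N, 8.88 and 17.3 in bIP, 26.0 and 33.3 in bRG and 28.8 and 34.6 in aRG in a member 2076 bp from its start (chr10:117494832-117495718). There bIP library 2 was about midway between bIP library 1 and the lowest radial glia library, and the fold in bIP was -1.28 ± 0.25 against aRG (adjusted p = 0.00131). Against bRG the fold was -1.18 ± 0.25 (adjusted p = 0.00234). EGFR, the receptor for epidermal growth factor, had 0.867 and 0.744 CPM in N, 2.57 and 4.33 in bIP, 12.7 and 13.0 in bRG and 16.0 and 13.0 in aRG in a member at chr7:55279298-55280143, again with bIP between, at -2.07 ± 0.28 against aRG (adjusted p = 0.000116). The fold over bRG was -1.90 ± 0.28 (adjusted p = 0.000227). SPRY1, a feedback inhibitor of the same receptors, had 3 members with different patterns. One (chr4:120813459-120814833) had 1.36 and 1.41 CPM in N, 4.39 and 7.62 in bIP, 27.6 and 21.7 in bRG and 30.0 and 23.9 in aRG and fell in bIP at -2.17 ± 0.25 against aRG (adjusted p = 3.77e-05). Relative to bRG it was -2.04 ± 0.25 (adjusted p = 6.24e-05). Another (chr4:120770316-120771452) had 1.27 and 0.784 CPM in N, 6.34 and 5.28 in bIP, 3.40 and 2.58 in bRG and 4.49 and 2.89 in aRG, with both bIP libraries above all radial glia libraries and a fold of 0.65 ± 0.32 against aRG that was not called (edgeR adjusted p = 0.117), while with the replicate number as a block it was (adjusted p = 0.0251), one of 2 calls among the 14 alternatives. Against bRG this region was higher in bIP, at 0.96 ± 0.32 (edgeR adjusted p = 0.0306), a call lost without bRG library 1 (adjusted p = 0.0624), without bRG library 2 (adjusted p = 0.199), without bIP library 1 (adjusted p = 0.151) and without bIP library 2 (adjusted p = 0.0504), and adjusted p ran between 0.00320 and 0.199 over the 14 alternatives. In all, 14 of 114 regions (12.3%) of the FGF and ERK genes were members, 9 of them lower in bIP than in aRG (beside 41.9% of members near all protein-coding genes) and none higher, or 1 higher with the replicate block.

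Genes of the BMP and TGF-beta pathway, in which these growth factors act on fate and matrix through paired receptors, gave 17 members among 115 regions (14.8%), of which 12 were lower and 1 higher in bIP than in aRG, with a median log2 fold change of -1.53. Near all protein-coding genes 41.9% of members were lower and 5.76% higher. TGFBR2, a type II receptor, had a member over its start and another 18938 bp away. The start region (chr3:30819085-30820674) had 2.88 and 3.41 CPM in N, 5.11 and 6.89 in bIP, 15.7 and 12.4 in bRG and 20.0 and 15.1 in aRG. The distal one (chr3:30799509-30800518) had 0.867 and 0.784 CPM in N, 8.37 and 10.7 in bIP, 28.4 and 22.4 in bRG and 30.2 and 24.7 in aRG. Both were ordered N, bIP, radial glia without overlap. In bIP the start stood at -1.55 ± 0.25 against aRG (adjusted p = 0.000330). Its fold against bRG was -1.23 ± 0.25 (adjusted p = 0.00160). The distal region stood at -1.53 ± 0.19 against aRG (adjusted p = 6.92e-05). For bRG the fold was -1.42 ± 0.19 (adjusted p = 0.000125). BMPR1B, a type I receptor for bone morphogenetic proteins, had 6 members among 16 regions, 4 of them lower and 1 higher in bIP than in aRG. The strongest (chr4:92536253-92537317, 6513 bp from the start) had 1.21 and 1.10 CPM in N, 6.996 and 14.4 in bIP, 33.9 and 34.5 in bRG and 37.4 and 35.4 in aRG and fell in bIP at -1.77 ± 0.25 against aRG (adjusted p = 0.000126). Over bRG it stood at -1.68 ± 0.24 (adjusted p = 0.000197). The one that went the other way (chr4:92557839-92558819) had 1.24 and 0.980 CPM in N, 5.33 and 6.01 in bIP, 3.23 and 3.02 in bRG and 3.40 and 2.60 in aRG, with bIP above every radial glia library. Its fold of 0.92 ± 0.28 against aRG (edgeR adjusted p = 0.0181) was lost without aRG library 2 (adjusted p = 0.154) and without bIP library 2 (adjusted p = 0.0755), and adjusted p ran between 0.00476 and 0.154 over the 14 alternatives. The 3 members near BMPR1A, the related receptor, were all lower in bIP than in aRG. The one at chr10:82540734-82541510 had 0.836 and 0.627 CPM in N, 2.36 and 1.91 in bIP, 10.3 and 6.75 in bRG and 10.6 and 7.21 in aRG, at -2.06 ± 0.33 against aRG (adjusted p = 0.000317).

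Among Wnt genes, a pathway that keeps progenitors cycling, 18 of 148 regions (12.2%) were members, 14 lower and 1 higher in bIP than in aRG, beside 41.9% lower and 5.76% higher among members near all protein-coding genes. The ligand gene WNT7A had a member 16010 bp from its start (chr3:14054489-14055455) with 2.07 and 2.59 CPM in N, 4.57 and 7.04 in bIP, 22.4 and 21.7 in bRG and 23.3 and 23.8 in aRG. All 4 radial glia libraries were within a narrow band far above bIP, at -2.02 ± 0.22 against aRG (adjusted p = 2.73e-05). Compared with bRG it was -1.93 ± 0.22 (adjusted p = 4.14e-05). The related ligand gene WNT7B had a member of the other direction (chr22:28775142-28775893), with 3.90 and 2.74 CPM in N, 8.01 and 10.9 in bIP, 4.99 and 4.75 in bRG and 4.96 and 5.24 in aRG. Its fold of 0.89 ± 0.28 against aRG (edgeR adjusted p = 0.0191) was lost without aRG library 1 (adjusted p = 0.111), without aRG library 2 (adjusted p = 0.0823) and without bIP library 2 (adjusted p = 0.139), and adjusted p ran between 0.00488 and 0.139 over the 14 alternatives. FZD5, which encodes a Wnt receptor of the Frizzled family, had 0.836 and 0.744 CPM in N, 3.91 and 5.09 in bIP, 25.3 and 24.1 in bRG and 29.3 and 24.1 in aRG at chr2B:94408578-94410055. It had the deepest fall of the Wnt members described here, at -2.57 ± 0.20 against aRG (adjusted p = 4.88e-06). Set against bRG it was -2.45 ± 0.20 (adjusted p = 7.41e-06). LEF1, which carries the signal to target genes, had a member (chr4:105735518-105736437) with 6.50 and 5.56 CPM in N, 8.95 and 11.4 in bIP, 27.4 and 25.2 in bRG and 32.9 and 29.9 in aRG. Another, 634 bp from its start, had 15.9 and 15.4 CPM in N, 17.1 and 20.2 in bIP, 20.9 and 19.2 in bRG and 24.5 and 22.1 in aRG. That near the start was close to level and was not called, at -0.32 ± 0.15 against aRG (adjusted p = 0.0913). The farther one was lower in bIP, at -1.62 ± 0.17 against aRG (adjusted p = 1.96e-05). Against bRG the fold was -1.37 ± 0.17 (adjusted p = 6.08e-05). AXIN2, a target that feeds back on the pathway, had 3 members, all lower in bIP than in aRG. Its strongest (chr17:58607213-58608605) had 9.01 and 3.96 CPM in N, 16.4 and 18.8 in bIP, 42.5 and 39.6 in bRG and 50.3 and 45.0 in aRG, at -1.44 ± 0.25 against aRG (adjusted p = 0.000539). The fold over bRG was -1.22 ± 0.25 (adjusted p = 0.00165).

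Members also lay near Hedgehog, Hippo and cell cycle genes. Of 92 Hedgehog regions 9 (9.78%) were members, with 4 lower and 1 higher in bIP than in aRG, and of 50 Hippo regions 4 were members, with 3 lower and none higher. The shares among members near all protein-coding genes were 41.9% lower and 5.76% higher. GLI2, an effector of Hedgehog signals, had 3 members, and the one over its start (chr2B:7222408-7223723) had 6.04 and 4.15 CPM in N, 8.41 and 7.77 in bIP, 11.3 and 10.4 in bRG and 12.1 and 11.9 in aRG. The groups did not overlap, but the fold of -0.57 ± 0.24 against aRG was not called (edgeR adjusted p = 0.0644), while with the replicate number as a block it was (adjusted p = 0.0233). A second GLI2 member 6248 bp away (chr2B:7229756-7230793) had 10.8 and 3.45 CPM in N, 12.9 and 10.1 in bIP, 4.37 and 4.14 in bRG and 4.73 and 4.02 in aRG, with bIP above the radial glia and N library 1 among the bIP values. Its fold of 1.40 ± 0.41 against aRG (edgeR adjusted p = 0.0141) was lost without aRG library 1 (adjusted p = 0.0527), without aRG library 2 (adjusted p = 0.0873) and without bIP library 1 (adjusted p = 0.0861), and adjusted p ran between 0.000826 and 0.0873 over the 14 alternatives. The single member of GLI3, the main Hedgehog-regulated repressor of the dorsal forebrain, had 5.26 and 5.76 CPM in N, 5.98 and 7.96 in bIP, 8.77 and 16.2 in bRG and 9.73 and 18.6 in aRG, so library 2 was nearly double library 1 in both radial glia populations. The GLI3 member was not called against bRG (edgeR adjusted p = 0.0631), while 5 of the 14 alternatives called it lower, the replicate block at adjusted p = 0.00649. Its fold of -1.02 ± 0.34 against aRG (edgeR adjusted p = 0.0257) was lost with library totals only (adjusted p = 0.0630), with TMM factors from regions at a gene start (adjusted p = 0.0920), without aRG library 2 (adjusted p = 0.358) and without bIP library 1 (adjusted p = 0.158), and adjusted p ran between 0.00159 and 0.358 over the 14 alternatives. TEAD1, the DNA-binding partner of YAP1, had 6.29 and 3.88 CPM in N, 10.0 and 8.998 in bIP, 16.3 and 16.8 in bRG and 18.6 and 17.4 in aRG and was lower in bIP than in aRG, at -0.92 ± 0.22 (edgeR adjusted p = 0.00465). Its call against bRG (edgeR adjusted p = 0.0113) was lost in 3 of the 14 alternatives. LATS2, a kinase that restrains YAP1, had 6.69 and 5.49 CPM in N, 8.77 and 6.97 in bIP, 17.6 and 14.6 in bRG and 18.5 and 17.6 in aRG in a member over its start (chr13:2169504-2171283), with a fold of -1.20 ± 0.21 against aRG (adjusted p = 0.000554). Relative to bRG it was -1.03 ± 0.21 (adjusted p = 0.00159). CCND1, the cyclin that carries cells through the first growth phase, had a member over its start (chr11:65334162-65334996) with 4.65 and 3.45 CPM in N, 7.94 and 8.92 in bIP, 18.5 and 16.4 in bRG and 21.8 and 20.2 in aRG, lower in bIP at -1.32 ± 0.20 against aRG (adjusted p = 0.000222). Its fold against bRG was -1.05 ± 0.20 (adjusted p = 0.00109). Of 82 regions near the 22 cell cycle genes listed, 4 (4.88%) were members, beside 6.28% near all protein-coding genes, with 2 lower in bIP than in aRG and none higher.

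Genes of basal radial glia, adhesion and matrix had members too. None was called between bRG and aRG, but neither was any of the 198227 tested regions, so nothing is read from this for these genes. FAM107A, a gene used to mark basal radial glia, had a member over its start (chr3:58875369-58877435) with 1.86 and 1.41 CPM in N, 6.02 and 7.24 in bIP, 15.4 and 13.8 in bRG and 16.7 and 13.2 in aRG. It fell in bIP, at -1.17 ± 0.24 against aRG (adjusted p = 0.00150), and bRG and aRG overlapped. For bRG the fold was -1.14 ± 0.24 (adjusted p = 0.00189). PTPRZ1, a receptor phosphatase of the radial glia surface, had 2.199 and 2.82 CPM in N, 6.60 and 12.5 in bIP, 40.4 and 45.0 in bRG and 50.6 and 46.4 in aRG (chr7:118853104-118854644), with bIP at -2.34 ± 0.23 against aRG (adjusted p = 1.51e-05). Over bRG it stood at -2.16 ± 0.23 (adjusted p = 2.73e-05). TNC, the matrix protein tenascin-C that binds this phosphatase, had 5.70 and 4.27 CPM in N, 13.3 and 13.3 in bIP, 24.3 and 21.8 in bRG and 25.04 and 23.8 in aRG over its start (chr9:87393679-87395120), a smaller step in bIP of -0.88 ± 0.17 against aRG (adjusted p = 0.00116). Compared with bRG it was -0.79 ± 0.17 (adjusted p = 0.00237). ITGB5, an integrin subunit through which cells hold the matrix, carried a steep one (chr3:123038027-123039125), with 1.39 and 1.02 CPM in N, 6.74 and 11.5 in bIP, 46.0 and 48.9 in bRG and 51.6 and 49.3 in aRG and a fold of -2.47 ± 0.20 against aRG (adjusted p = 6.52e-06). Set against bRG it was -2.38 ± 0.20 (adjusted p = 9.33e-06). The start region of COL11A1, a fibrillar collagen gene (chr1:101922005-101924505), had 6.10 and 6.93 CPM in N, 17.7 and 25.6 in bIP, 41.1 and 51.9 in bRG and 45.0 and 57.3 in aRG, at -1.24 ± 0.18 against aRG (adjusted p = 0.000175). Against bRG the fold was -1.11 ± 0.18 (adjusted p = 0.000415). All 6 members of the matrix and integrin list, from 74 regions (8.11%), were lower in bIP than in aRG, as were 7 of the 10 members of the basal radial glia list (113 regions, 8.85%), and none of either list was higher. Among members near all protein-coding genes 41.9% were lower and 5.76% higher. Of 102 regions near the listed genes of apical radial glia and polarity, 6 (5.88%) were members, with 2 lower in bIP than in aRG and none higher.

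Other members lay near genes of intermediate progenitors and neurons. Of 80 regions near the 17 intermediate progenitor genes listed, 9 were members (11.3%), with 1 lower in bIP than in aRG (beside 41.9% of members near all protein-coding genes), none higher and a median log2 fold change of 0.03. With the replicate block 2 were lower and 2 higher. EOMES, the defining factor of these cells, had 2 members, and the stronger (chr3:27899042-27900278) had 5.14 and 3.76 CPM in N, 8.88 and 8.92 in bIP, 7.45 and 8.72 in bRG and 10.4 and 9.43 in aRG. Its bIP libraries lay among the radial glia libraries, and neither fold was called, at -0.15 ± 0.24 against aRG (adjusted p = 0.633). The fold over bRG was 0.14 ± 0.24 (adjusted p = 0.690). NEUROG1, a proneural factor, had 12.8 and 7.72 CPM in N, 24.3 and 24.5 in bIP, 28.5 and 26.4 in bRG and 34.3 and 29.4 in aRG over its start (chr5:113722908-113724934), a strong region in every progenitor and uncalled at -0.39 ± 0.19 against aRG (edgeR adjusted p = 0.109), while with the replicate number as a block it was (adjusted p = 0.0395). The start region of PPP1R17, a phosphatase inhibitor gene expressed in intermediate progenitors, had 9.04 and 6.15 CPM in N, 9.06 and 11.1 in bIP, 9.65 and 10.4 in bRG and 9.46 and 10.3 in aRG, so N library 1 was level with bIP library 1. INSM1, a zinc finger factor that moves progenitors away from the ventricle, had 2 members, and the stronger (chr20:20791301-20793850) had 11.6 and 6.70 CPM in N, 27.04 and 27.8 in bIP, 18.0 and 14.6 in bRG and 20.6 and 16.5 in aRG. In it bIP was above every radial glia library, with a fold of 0.56 ± 0.22 against aRG that was not called (edgeR adjusted p = 0.0533), while with the replicate number as a block it was (adjusted p = 0.00773), one of 5 of the 14 alternatives that called it. Against bRG it was higher in bIP, at 0.75 ± 0.22 (edgeR adjusted p = 0.0158), a call lost without bRG library 2 (adjusted p = 0.120), without bIP library 1 (adjusted p = 0.0597) and without bIP library 2 (adjusted p = 0.0712), and adjusted p ran between 0.00123 and 0.120 over the 14 alternatives. HES6, which counters HES1, had 2.26 and 1.29 CPM in N, 6.27 and 6.24 in bIP, 2.67 and 3.66 in bRG and 3.48 and 4.02 in aRG, with bIP highest and a fold of 0.74 ± 0.31 against aRG that was not called (edgeR adjusted p = 0.0691), while with the replicate number as a block it was (adjusted p = 0.0343), one of 5 of the 14 alternatives that called it. The HES6 region was called higher in bIP than in bRG, at 0.98 ± 0.31 (edgeR adjusted p = 0.0222), a call lost without bRG library 1 (adjusted p = 0.185), without bIP library 1 (adjusted p = 0.0760) and without bIP library 2 (adjusted p = 0.0732), and adjusted p ran between 0.00771 and 0.185 over the 14 alternatives.

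NEUROD4, a factor switched on as progenitors commit to neurons, had members of opposite direction, with 5 members among 12 regions, 2 higher and 2 lower in bIP than in aRG. The strongest (chr12:34023648-34024807, 40762 bp away) had 6.57 and 2.59 CPM in N, 19.2 and 23.8 in bIP, 7.98 and 10.7 in bRG and 11.1 and 10.8 in aRG. The next (chr12:34033157-34034420, 31119 bp away) had 1.80 and 1.33 CPM in N, 10.8 and 14.4 in bIP, 5.11 and 6.65 in bRG and 7.19 and 6.58 in aRG. In both, bIP was above all radial glia libraries, at 0.97 ± 0.32 (edgeR adjusted p = 0.0254) and 0.87 ± 0.27 (edgeR adjusted p = 0.0189) against aRG. The call of the first was lost without aRG library 1 (adjusted p = 0.0956), without aRG library 2 (adjusted p = 0.108) and without bIP library 2 (adjusted p = 0.149), and adjusted p ran between 0.00231 and 0.149 over the 14 alternatives. The call of the second was lost without aRG library 1 (adjusted p = 0.0766), without aRG library 2 (adjusted p = 0.116) and without bIP library 2 (adjusted p = 0.136), and adjusted p ran between 0.00493 and 0.136 over the 14 alternatives. Closer to the gene, the member at chr12:34043547-34044409 had 0.341 and 0.431 CPM in N, 2.57 and 3.02 in bIP, 4.81 and 4.78 in bRG and 6.84 and 4.69 in aRG, with bIP below the radial glia at -1.04 ± 0.29 against aRG (edgeR adjusted p = 0.0110), a call lost without aRG library 1 (adjusted p = 0.134) and without bIP library 1 (adjusted p = 0.0717), and adjusted p ran between 0.00370 and 0.134 over the 14 alternatives. For this closer member the call against bRG (edgeR adjusted p = 0.0474) was lost in 10 of the 14 alternatives. The region over the start (chr12:34065038-34065977) had 2.60 and 1.49 CPM in N, 4.71 and 5.36 in bIP, 3.20 and 3.495 in bRG and 3.01 and 2.93 in aRG and was not called, with a fold of 0.76 ± 0.31 against aRG (edgeR adjusted p = 0.0587), while with the replicate number as a block it was (adjusted p = 0.0277).

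BCL11A, a factor of cortical projection neurons, had 5 members among 20 regions. One lay over its start, and all 5 were lower in bIP than in aRG. The strongest (chr2A:60686989-60688579) had 7.62 and 7.01 CPM in N, 32.99 and 34.8 in bIP, 47.9 and 40.3 in bRG and 55.1 and 45.5 in aRG, a small step of -0.57 ± 0.13 against aRG (edgeR adjusted p = 0.00275). Its call against bRG (edgeR adjusted p = 0.0275) was lost in 5 of the 14 alternatives, DESeq2 among them (adjusted p = 0.119). The start region (chr2A:60706299-60707000) had 7.34 and 6.86 CPM in N, 10.9 and 16.8 in bIP, 24.4 and 22.7 in bRG and 26.8 and 24.2 in aRG, at -0.88 ± 0.19 (edgeR adjusted p = 0.00248). FEZF2, a factor of radial glia and deep-layer neurons, had 5.82 and 5.05 CPM in N, 14.4 and 18.5 in bIP, 36.0 and 33.2 in bRG and 40.4 and 34.8 in aRG in a member 1492 bp from its start (chr3:62604868-62605521), and bIP stood between N and the radial glia at -1.19 ± 0.15 against aRG (adjusted p = 7.18e-05). Relative to bRG it was -1.07 ± 0.15 (adjusted p = 0.000159). Of 134 regions near the 20 neuron genes listed, 8 (5.97%) were members, 4 of them lower in bIP than in aRG and none higher, beside 41.9% lower among members near all protein-coding genes.

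Lists of other cell types that an organoid can hold were counted in the same way. The share of members was 29.2% for oligodendrocyte lineage genes (7 of 24 regions), 15% for astroglial genes (6 of 40), 12.5% for choroid plexus and cortical hem genes (8 of 64), 8.47% for interneuron and ganglionic eminence genes (5 of 59) and 5.41% for mesenchyme, vessel and microglia genes (2 of 37). Summed over these 5 lists, 12 of 28 members (42.9%) were lower in bIP than in aRG and none was higher, beside 41.9% lower and 5.76% higher among members near all protein-coding genes. Of the 7 oligodendrocyte lineage members 1 was lower, or 3 with the replicate block. Summed over all regions of the list, astroglial genes had 153 and 134 CPM in N, 192 and 200.4 CPM in bIP, 367 and 339.5 CPM in bRG and 376 and 360.2 CPM in aRG, an order like that of the members. Interneuron genes summed to 272 and 232 CPM in N, 345 and 347 CPM in bIP, 442 and 421 CPM in bRG and 527 and 460.1 CPM in aRG. Oligodendrocyte genes were closer together, at 96.9 and 66.8 CPM in N, 141 and 114 CPM in bIP, 129 and 103 CPM in bRG and 132 and 108 CPM in aRG. Choroid plexus and hem genes summed to 202 and 185 CPM in N, 242 and 233 CPM in bIP, 322 and 288 CPM in bRG and 356 and 333 CPM in aRG. Mesenchyme, vessel and microglia genes summed to 177 and 155 CPM in N, 173 and 164 CPM in bIP, 240 and 191 CPM in bRG and 258 and 205 CPM in aRG. Whether cells of these types in the sorted populations bear on the members was not tested. DLX1, a factor of interneuron progenitors, gave the steepest member of the interneuron list (chr2B:58660473-58662037), with 0.836 and 1.49 CPM in N, 3.91 and 5.63 in bIP, 32.4 and 23.9 in bRG and 41.0 and 25.3 in aRG and a fold in bIP of -2.80 ± 0.29 against aRG (adjusted p = 2.03e-05). Its fold against bRG was -2.56 ± 0.29 (adjusted p = 3.80e-05). A member 507 bp from the start of GJA1, which encodes the gap junction protein connexin 43 of radial glia and astrocytes, had 6.16 and 6.50 CPM in N, 7.29 and 6.51 in bIP, 15.7 and 13.4 in bRG and 22.9 and 17.1 in aRG, with bIP almost at the neuronal level and a fold of -1.54 ± 0.21 against aRG (adjusted p = 0.000115). For bRG the fold was -1.08 ± 0.21 (adjusted p = 0.00128). OLIG2, a factor of glial and ventral progenitors, had 2 weak members, and the one at chr21:19587572-19588627 had 1.64 and 1.37 CPM in N, 3.12 and 2.87 in bIP, 3.79 and 3.495 in bRG and 3.87 and 3.603 in aRG and was not called.

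**Figure D5:**
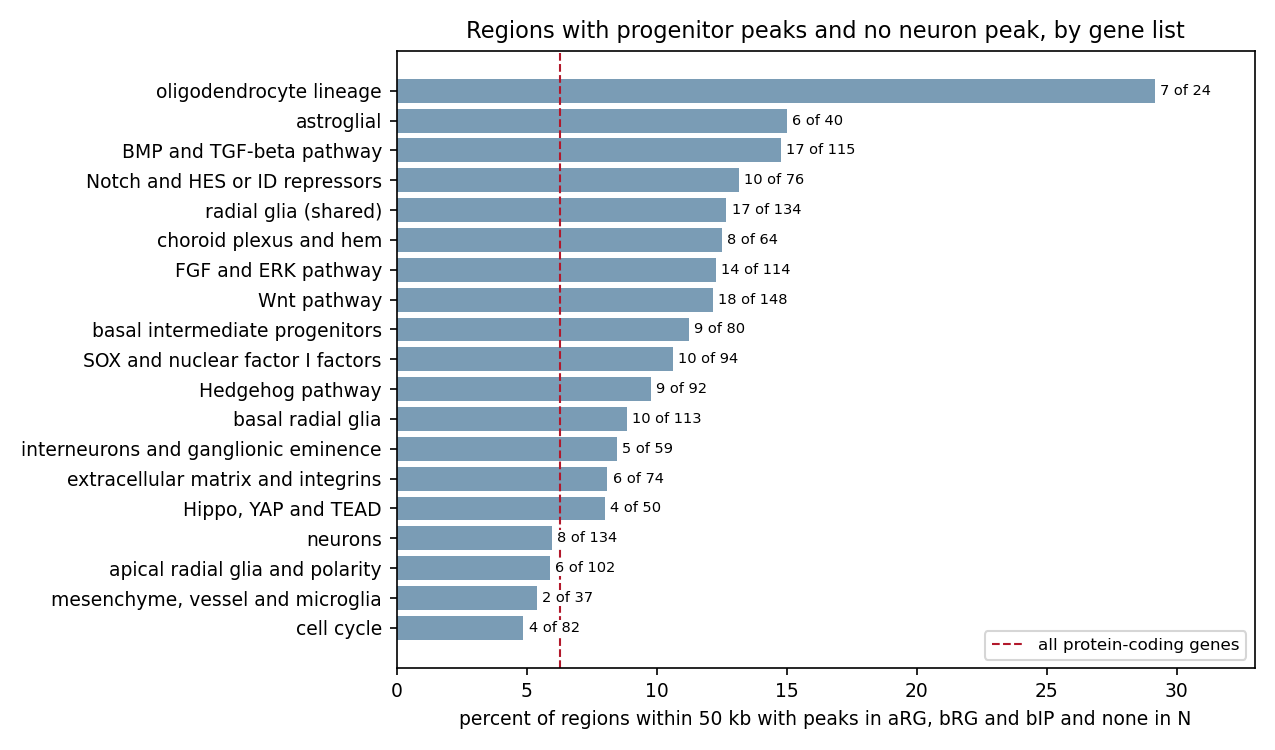
Percent of members among the regions whose closest gene, within 50 kb, is in each list. The dashed line is at 6.28%, for all protein-coding genes. Oligodendrocyte lineage genes stand at 29.2% on 24 regions, BMP and TGF-beta genes at 14.8% and cell cycle genes at 4.88%.

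The largest changes within the progenitors lay mostly near genes known only by clone or non-coding identifiers. Only 26.9% of all members and 27.8% of all regions had a protein-coding closest gene, so nothing is read from this. The steepest rise in bIP against aRG was in a region 99317 bp from CALN1, a calcium sensor gene of neurons (chr7:70524336-70525429). It had 4.24 and 2.43 CPM in N, 23.9 and 26.2 in bIP, 2.11 and 2.07 in bRG and 2.50 and 2.01 in aRG, so bIP stood apart from both N and the radial glia, at 3.47 ± 0.30 against aRG (adjusted p = 8.61e-06). Over bRG it stood at 3.58 ± 0.30 (adjusted p = 8.79e-06). A region near LINC01939 (chr2A:865595-866757, 475 bp away) had 4.24 and 2.08 CPM in N, 27.4 and 28.2 in bIP, 2.76 and 1.93 in bRG and 3.20 and 2.39 in aRG. A region near AP002768.1 (chr11:74495214-74496508) had 14.4 and 8.27 CPM in N, 36.5 and 31.4 in bIP, 3.32 and 3.90 in bRG and 3.87 and 3.14 in aRG, and here N lay above the radial glia although no N peak was called. The folds in bIP against aRG were 3.31 ± 0.34 for LINC01939 (edgeR adjusted p = 1.79e-05) and 3.27 ± 0.27 for AP002768.1 (edgeR adjusted p = 6.54e-06), and the others of the 5 steepest rises, near LINC01944 and AC026736.1, had 3.00 ± 0.27 and 2.99 ± 0.26. Against bRG a region near MIR1275 (chr6:33456296-33457176) joined the 3 steepest, with 3.13 and 1.37 CPM in N, 10.6 and 12.7 in bIP, 1.03 and 1.39 in bRG and 2.42 and 1.68 in aRG and a fold of 3.27 ± 0.40 (edgeR adjusted p = 5.95e-05). The steepest fall against aRG was near AL160269.1 (chr9:68521233-68522046), with 0.403 and 0.509 CPM in N, 1.49 and 1.72 in bIP, 15.1 and 9.98 in bRG and 19.2 and 13.7 in aRG and a fold of -3.36 ± 0.31 (edgeR adjusted p = 1.19e-05). The others of the 5, near AC096661.1, ATP13A5-AS1, AL139120.1 and PIGUP1, had folds of -3.34 ± 0.33, -3.31 ± 0.30, -3.17 ± 0.27 and -3.12 ± 0.35, and near AC005534.1 the fold against bRG was -3.05 ± 0.26. In these falling regions bIP was low but, except near PIGUP1, at least double the N level in both libraries.

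The member with the most counts in progenitors lay 42621 bp from HMGN3-AS1 (chr6:76635717-76638075) and had 2.01 and 2.35 CPM in N, 15.0 and 31.9 in bIP, 102 and 108 in bRG and 117 and 110.2 in aRG. Library 2 of bIP was about double library 1, and the fold in bIP was -2.28 ± 0.24 against aRG (adjusted p = 2.05e-05). Compared with bRG it was -2.16 ± 0.24 (adjusted p = 3.17e-05). Of the 10 strongest members, a ranking to which radial glia give 4 of 6 libraries, 9 were lower in bIP than in aRG, beside 48.2% of all members. The exception, near AC009498.1 (chr2B:90854494-90856989), had 12.3 and 9.17 CPM in N, 59.5 and 63.6 in bIP, 61.7 and 59.1 in bRG and 78.1 and 65.4 in aRG. There bIP and bRG overlapped, and the fold of -0.22 ± 0.13 against aRG was not called (edgeR adjusted p = 0.170). A region 9745 bp from VANGL2, a gene of planar cell polarity, had 9.82 and 6.74 CPM in N, 23.4 and 27.2 in bIP, 84.9 and 76.4 in bRG and 89.7 and 81.4 in aRG, at -1.76 ± 0.15 against aRG (adjusted p = 6.85e-06). Set against bRG it was -1.67 ± 0.15 (adjusted p = 1.06e-05). The deepest drop of N below the progenitors, among members of at least 5 CPM in progenitors, was 35231 bp from METAP1D, a mitochondrial aminopeptidase gene (chr2B:58544706-58545429), with 0.186 and 0.431 CPM in N, 4.24 and 7.89 in bIP, 39.3 and 36.8 in bRG and 42.7 and 38.7 in aRG. It was also far lower in bIP than in radial glia, at -2.75 ± 0.25 against aRG (adjusted p = 1.05e-05). Against bRG the fold was -2.65 ± 0.25 (adjusted p = 1.56e-05). A region near AC105148.1 (chr4:165737737-165738799) had 0.867 and 0.588 CPM in N, 20.2 and 37.4 in bIP, 50.5 and 51.1 in bRG and 62.7 and 61.6 in aRG, a high level in bIP beside one near zero in N.

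Like all regions, members lay mostly away from gene starts. Their median width was 1095 bp and their median distance to the closest gene's start was 19782 bp. These stood beside 1340 bp and 6278 bp for regions with peaks in all 4 lists and 858 bp and 20283 bp for all regions. Regions with peaks in aRG and bRG only had 886 bp and 23815 bp, with 2.92% over a gene start. Over a gene start lay 775 members (5.74%), against 33.5% of regions with peaks in all 4 lists and 7.89% of all regions, and 3195 members (23.7%) were more than 50 kb from one. Of the 775, 351 (45.3%) were lower and 24 (3.10%) higher in bIP than in aRG and 400 were not called. These shares stand beside 48.2% lower and 6.31% higher among all members, and 22.6% lower and 24.5% higher among all tested regions. Over the starts of listed genes lay 17 members, of which those at COL11A1, PAX6, CCND1, LATS2, TGFBR2, FAM107A, HES1, TNC and LGALS3BP were lower in bIP than in aRG. The call at LGALS3BP, with a fold of -0.82 ± 0.22 against aRG (edgeR adjusted p = 0.00814), was lost with TMM factors from regions at a gene start (adjusted p = 0.0541) and without aRG library 1 (adjusted p = 0.0520), and adjusted p ran between 0.00154 and 0.0541 over the 14 alternatives. Those at LGALS3, CSPG4, MBP, GLI2, S100B, NEUROG1, AQP1 and PPP1R17 were not called, of which those at CSPG4, GLI2 and NEUROG1 were called lower with the replicate block. Members lower in bIP lay farther out, at a median of 23130 bp, than members called against neither, at 16884 bp, with 5.04% and 6.74% over a start. Matching identifiers in human and gorilla were listed for 12780 members (92.9%), near the 94.1% of all regions, and 189 (1.37%) had a chimpanzee identifier only. Among the numbered chromosomes, the only ones counted, the share of members ran between 4.74% on chromosome 21 and 7.30% on chromosome 22.

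Members were slightly grouped along the chromosomes. For 1218 of 13761 members (8.85%) the next region was a member as well, against 6.51% over all regions. Runs of at least 3 neighbouring members numbered 101, and the longest held 6, at chr2B:17244528-17275802. A run of 5 at chr3:13701557-13723617 lay beside HDAC11, a histone deacetylase gene, and FBLN2, a matrix gene, and none of its 5 members was called between bIP and the radial glia, while with the replicate block 1 was lower and 1 higher in bIP than in aRG. The HDAC11 member chr3:13707471-13708659 had 5.76 and 3.21 CPM in N, 9.53 and 8.998 in bIP, 13.7 and 12.4 in bRG and 12.8 and 11.4 in aRG. Of 14234 protein-coding genes with a region within 50 kb, 2408 had at least 1 member, 458 at least 2 and 10 at least 5. CRHR2, a receptor gene for corticotropin-releasing hormone, and BMPR1B and TRIM2 had the most, with 6 each, of 14, 16 and 20 regions. Around CRHR2 4 members were lower and 1 higher in bIP than in aRG. Its strongest member (chr7:30747191-30749378) had 2.85 and 2.43 CPM in N, 19.2 and 30.5 in bIP, 52.2 and 44.6 in bRG and 53.4 and 44.9 in aRG, at -0.99 ± 0.19 against aRG (adjusted p = 0.000945). The fold over bRG was -0.96 ± 0.18 (adjusted p = 0.00119). The rising one (chr7:30787763-30788655) had 0.867 and 0.588 CPM in N, 6.16 and 7.50 in bIP, 2.05 and 2.21 in bRG and 2.03 and 1.97 in aRG, at 1.77 ± 0.30 against aRG (adjusted p = 0.000436). Relative to bRG it was 1.68 ± 0.29 (adjusted p = 0.000604). By share of their regions, VAX1, a forebrain homeobox gene, led with 4 of 6 (66.7%), 3 of them lower in bIP than in aRG and none higher, followed by PRRX2 with 3 of 5, HDAC11 with 4 of 7, ACOT11 with 5 of 9 and LRIG3 with 4 of 8.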

How the data were processed

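ATAC-seq was measured in 8 libraries, 2 per sorted population. The authors deposited a table of raw counts per region, not normalized, with identifiers in 3 species and the closest gene and its distance, and a consensus peak list per population with a −log10 q-value for each peak. The builds panTro6 and hg38, bcl2fastq 2.20.0 and MACS2 appear in the submitters' processing notes without a stated role, and no source used here names an aligner. Of 218080 rows, 6725 without a chimpanzee identifier and 7 repeats were left out. Distances pointed within 2 bp at 1 human position per gene for 99.9% of regions, taken as the gene's start, and their build is not stated. Counts were fitted with edgeR 4.0.16 in R 4.3.3 (filterByExpr, TMM factors, all 4 populations in 1 quasi-likelihood fit), which removed 13121 regions, and with DESeq2 1.42.0 as an alternative, and p-values were adjusted over 198227 regions. CPM values are scaled by library totals and these factors. On simulated counts for bIP against aRG over 198227 regions, the fit called 0 of 67 members changed 1.5-fold, 4 of 67 changed 2-fold and 46 of 66 changed 4-fold, and 6 of 195064 unchanged regions. Only these members were changed in the simulation, so the adjustment was stricter there than in the data. In the data 22.6% of tested regions were lower and 24.5% higher in bIP than in aRG. The simulated shares therefore do not give what the fit could call in the data. The main fit had no term for the replicate number, and its calls, folds and adjusted p-values are given unless an alternative is named. Replicate numbers paired the libraries only in the alternative fit with the replicate number as a block. That fit was run because deviations of same-numbered libraries from their population means correlated at 0.116 to 0.313 over all 6 pairs of populations. This ground for pairing comes from the data, since the labels do not say what a number marks. Python 3.11.15, pandas 2.3.3 and matplotlib 3.10.9 did the rest. The members and gene lists were chosen with earlier results of these data known. Named regions are the strongest member near each of 26 progenitor genes, the steepest changes, the strongest members, those lowest in N, genes with the most members, members at the rule's edge and list genes' starts, and further regions were chosen after their values were seen. No sequence is shown.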

Additional observations from a re-analysis of the deposited data

How the results depend on the processing

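With 2 libraries a population, small folds and weak members are limited by counts, and intervals of single regions cover the spread of these libraries only. Of the alternative values of the main results, 273 kept their direction and stayed near the value given and 37 moved, and for single regions 3499 kept their call, 175 lost it, 50 gained one and 0 reversed. The cause of the changes was not tested. Scaling on library totals gave a median log2 fold change of bIP over aRG of -0.54, and factors from regions at a gene start gave -0.45, with 1346 members higher in bIP than in aRG, and medians of -0.51 for bIP over bRG, 0.046 for bRG over aRG and -1.83 for N over aRG. These scalings moved the median of all regions in bIP over aRG to 0.22 and 0.32, beside 0.05 with TMM factors over all regions. Leaving out each library in turn gave 417 to 1026 members higher in bIP than in aRG and 521 to 1072 higher in bIP than in bRG, 5134 to 6956 and 4713 to 6579 lower, and medians of -2.36 to -1.95 for N over aRG, -2.29 to -1.88 for N over bRG and -1.71 to -1.31 for N over bIP, and no member called between bRG and aRG. Requiring progenitor peaks over at least 50% of a region gave shares of counts of 7.12% in bIP, 12.3% in bRG and 12.4% in aRG, and identifiers in all 3 species gave 13.4% in bRG and 13.6% in aRG. A planned minimum of 10 on the peaks' −log10 q removed no member. Chosen after seeing the data, a minimum of 100 left 5218 members, of which 3129 were called in bIP against aRG (217 higher, 2912 lower, median -0.86) and 2988 against bRG (266 higher, 2722 lower, median -0.77), with medians of -2.73, -2.63 and -1.91 for N over aRG, bRG and bIP and shares of counts of 1.33% in N, 4.78% in bIP, 8.46% in bRG and 8.59% in aRG. Of those 5218, 55.8% were lower and 4.16% higher against aRG, beside 48.2% and 6.31% of all members. Against bRG 52.2% were lower and 5.10% higher, beside 45.5% and 6.68% of all members. Also chosen after seeing the data, dropping members with an N interval within 1000 bp gave shares of counts of 7.56% in bIP, 12.9% in bRG and 13.0% in aRG. With the replicate number as a block, 8691 members were called in bIP against aRG (1204 higher, 7487 lower) and 8433 against bRG (1303 higher, 7130 lower). Those lower were 54.4% of the members against aRG and 51.8% against bRG. Over all tested regions the block gave 26.3% lower and 27.3% higher against aRG, and 24.0% lower and 25.6% higher against bRG. Pairing by the block ended no call of a named region, and the calls it added stand beside the regions whose levels are given.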
